A study of Brassica napus with 24 samples.

Results

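The 3 genes annotated as phosphate transporters MPT3 (BnaC09g43140D), PHT1-4 (BnaC04g06480D) and PHO1;H3 (BnaAnng37580D), were followed in leaves of *Brassica napus* under water deficit (WD) and in well-watered controls. They are 3 of the 101040 genes in the count files and 3 of the 54835 genes that passed the filter on low counts. They were chosen by name because WD and control leaves differed at 5 d, 11 d or 20 d, so the values of those harvests are given as a description without a test. The 18 d harvest was not used in that choice and was tested. The change of each treatment from 5 d to 18 d was tested for PHT1-4 and PHO1;H3 only, since MPT3 was chosen by its 5 d libraries.

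All plants were wild type of the cultivar Trezzor, grown in a greenhouse on sandy compost, and each of the 8 groups held 3 libraries. WD plants were harvested 5 d and 11 d after watering stopped (labels with 50 and 25, taken as percent of field capacity, FC), at 18 d (label with 50) and at 20 d (label with 25), and at each harvest control plants kept at 80% FC were taken. The day of the 11 d libraries comes from the paper, since their labels carry the date of the first harvest, and the 18 d group is not described in the paper's text. Each library came from leaves of 2 pooled plants, formed since watering had stopped, and nothing in the sources says that replicates with the same number were grown together. The files held between 13263953 and 31112368 gene counts per library, and no pair of replicates agreed within sampling noise. CPM values below are gene counts scaled to library size with edgeR's TMM factor. They are not corrected for gene length, so levels are not compared between genes.

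Plants take up phosphate as an ion and move it across several membranes before it is used. In Arabidopsis, PHT1 proteins are proton-coupled importers in the plasma membrane, with PHT1;4 best known from phosphate-starved roots. PHO1 proteins export phosphate from cells, PHO1 itself into the root xylem, and PHO1;H3 has been linked there to phosphate transfer under zinc deficiency. MPT proteins are carriers of the inner mitochondrial membrane that bring phosphate to the site of ATP synthesis.

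The importer PHT1-4 was low in WD leaves at 18 d and clearly present in control leaves. It had 1.02, 2.01 and 0.601 CPM in the 3 WD libraries, against 30.3, 46.6 and 22.2 CPM in the 3 control libraries. The groups did not overlap, and the WD mean was 3.66% of the control mean. The log2 fold change was -4.80 with an approximate standard error (SE) of 1.08 (adjusted p = 0.0172, edgeR's quasi-likelihood test with Benjamini-Hochberg adjustment over all genes tested). As this is bulk leaf RNA, fewer cells that carry the transcript and less transcript per cell cannot be told apart.

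The exporter PHO1;H3 followed the same direction at 18 d at lower counts. It had 0.236, 0.535 and 0.240 CPM in WD leaves, from 3 to 8 counts a library, against 4.30, 8.98 and 4.98 CPM in control leaves, from 64 to 149 counts. The highest WD library lay far below the lowest control library. The log2 fold change was -4.22 (SE 1.11, adjusted p = 0.0342, edgeR's quasi-likelihood test).

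The mitochondrial carrier MPT3 fell less, and was well expressed in both treatments. It had 15.0, 17.3 and 19.5 CPM in WD leaves at 18 d, against 37.9, 35.1 and 34.3 CPM in control leaves. The spread within each group was small, and the WD mean was 48.3% of the control mean. The log2 fold change was -1.05 (SE 0.28, adjusted p = 0.0375, edgeR's quasi-likelihood test).

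All 3 genes were thus called lower in WD leaves at 18 d (adjusted p of at most 0.05), where 2.53% of all tested genes were called lower. Over all harvests PHO1;H3 reached the 0.6 CPM of the filter on low counts in 1 WD library and 9 controls. It entered the test through the group where it is high, so its call and the count of 3 are no more than a description. In all 3 genes the WD libraries lay below every control library of that harvest, which was so for 13.8% of tested genes. In this fit of all 24 libraries, which share an estimate of the spread, the calls lie close to the threshold and depend on single libraries. With 1 of the 6 libraries of the harvest left out, the call of MPT3 held in 1 of 6 fits (without WD replicate 3, adjusted p = 0.0386) and was lost in the others, up to an adjusted p of 0.138. That of PHT1-4 held in 2 of 6 (without WD replicate 3 or control replicate 3) and otherwise reached at most 0.0728. That of PHO1;H3 held in 1 of 6 (without control replicate 3, adjusted p = 0.0350) and otherwise reached at most 0.153. The direction was kept in all 18 of these fits. With the libraries of 5 d and 18 d fitted alone, the adjusted p at 18 d was 1.29e-05 for PHT1-4 (SE 0.23, edgeR's quasi-likelihood test). In that fit it was 0.0022 for PHO1;H3 and 0.0197 for MPT3 (same test). Over all genes the scaling matters too, as 54.1% of the genes called at 18 d were higher in WD leaves with TMM factors and 20.3% with total counts alone, a shift of -0.25 on the log2 scale. All 3 members kept their calls with total counts.

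As leaf markers, 3 genes annotated as chlorophyll A-B binding proteins were read, and they were detected in every library. They were taken from the part at hand of the study's list of differing genes, so their response to WD is no independent evidence. No marker of another tissue was read, so their detection does not decide the origin of the RNA. Their summed level was between 23.1 and 36.7 CPM in WD leaves at 18 d, against between 87.2 and 140 CPM in control leaves. It was lower in WD leaves also at 11 d (24.0 to 32.0 against 55.8 to 59.1 CPM) and at 20 d (65.2 to 79.7 against 89.9 to 123 CPM). At 5 d the groups overlapped (54.7 to 76.2 against 71.3 to 92.6 CPM). In the controls of 5 d, with the marker level just given, PHT1-4 averaged 0.730 CPM. The part of the marker level in the members' change was not tested.

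**Figure D1:**
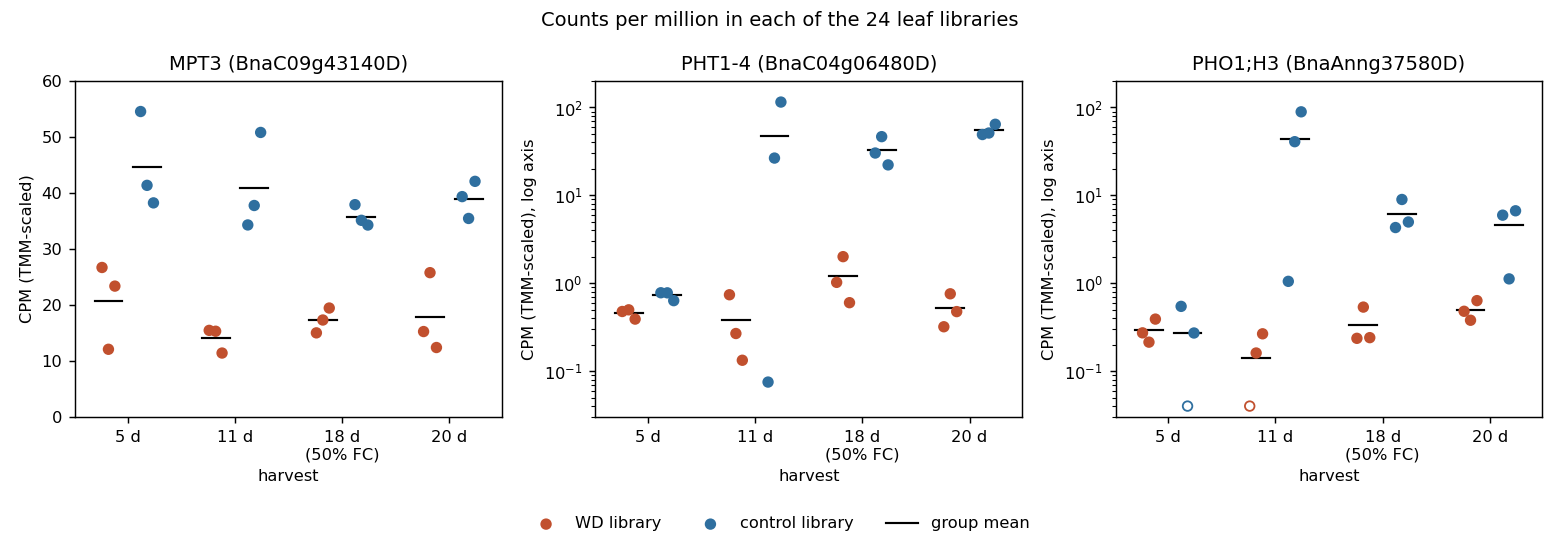
CPM (TMM-scaled) of MPT3, PHT1-4 and PHO1;H3 in each of the 24 libraries by harvest, with WD left of control in each pair, 1 point per library and a line at the mean of 3. The MPT3 axis is linear and the others are logarithmic, on which open points at the lower edge stand for libraries with 0 counts. WD points lie below control points at every harvest for MPT3. PHT1-4 and PHO1;H3 are low in all libraries of 5 d and lie below every control at 18 d and 20 d in WD leaves.

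At 5 d, MPT3 had a clear gap between treatments at well-counted levels, and this contrast is the one by which it was chosen. It had 26.7, 12.1 and 23.4 CPM in WD leaves, against 54.6, 41.4 and 38.2 CPM in controls, a log2 fold change of -1.11 (SE 0.28). In the model used here 0.0255% of all tested genes were called lower at 5 d, and none of the 3 members was among them. This is a description and no test of the members, since the contrast chose MPT3. The study itself reported MPT3 as lower at 5 d. PHT1-4 was near the limit of detection in both treatments, with 0.477, 0.498 and 0.391 CPM in WD leaves and 0.779, 0.778 and 0.634 CPM in controls, that is 6 to 14 counts a library. Its WD libraries too lay below its controls, though at these low counts. PHO1;H3 had 3 to 6 counts per library in WD leaves and 0 to 7 in controls. At this depth no difference could be seen for it.

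At 11 d, control leaves differed strongly among themselves. PHT1-4 had 0.740, 0.268 and 0.133 CPM in WD leaves, against 0.0751, 26.6 and 115 CPM in controls. Control replicate 1, with a single count, therefore lay below all 3 WD libraries, while the other two controls lay far above them. PHO1;H3 had 0, 0.161 and 0.266 CPM in WD leaves, against 1.05, 40.8 and 89.3 CPM in controls, and here control replicate 1 was again the lowest control but stayed above every WD library. MPT3 had 15.5, 15.3 and 11.4 CPM in WD leaves, against 34.3, 37.8 and 50.8 CPM in controls.

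The 11 d controls also differed over the whole transcriptome. By chi-square per degree of freedom, replicates 1 and 2 differed by 24.3, replicates 2 and 3 by 32.1 and replicates 1 and 3 by 71.2, so that replicates 1 and 3 were farthest apart. The root mean square distance of replicate 1 in log2 expression was 0.620 to the mean of the 5 d controls and 1.06 to that of the 18 d controls. Replicates 2 and 3 lay nearer the 18 d controls (0.658 and 0.891) than the 5 d controls (1.07 and 1.58). The 11 d log2 fold changes were -6.60 for PHT1-4, -8.02 for PHO1;H3 and -1.54 for MPT3 with all libraries, -7.48, -8.77 and -1.70 in the same order without control replicate 1, and -4.51, -7.02 and -1.33 without control replicate 3. Without WD replicate 1 that of PHT1-4 was -7.69.

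At 20 d, the WD libraries of each member lay below all of its control libraries. The share of all tested genes with such a separation was not determined for this harvest, so it is a description. At 20 d, 19.8% of all tested genes were called higher or lower. PHT1-4 had 0.320, 0.758 and 0.476 CPM in WD leaves, against 49.2, 51.2 and 64.4 CPM in controls, its narrowest control group in relative terms after that of 5 d. PHO1;H3 had 0.480, 0.379 and 0.634 CPM in WD leaves, against 5.95, 1.12 and 6.68 CPM in controls, with replicate 2 the low control. MPT3 had 15.3, 25.8 and 12.4 CPM in WD leaves, against 39.4, 35.5 and 42.1 CPM in controls. The log2 fold changes were -6.76 (SE 1.22), -3.29 (SE 1.06) and -1.13 (SE 0.28) in that order. That of PHO1;H3 was -2.42 without control replicate 1 and -3.91 without control replicate 2, and that of MPT3 was -1.56 without WD replicate 2.

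**Figure D2:**
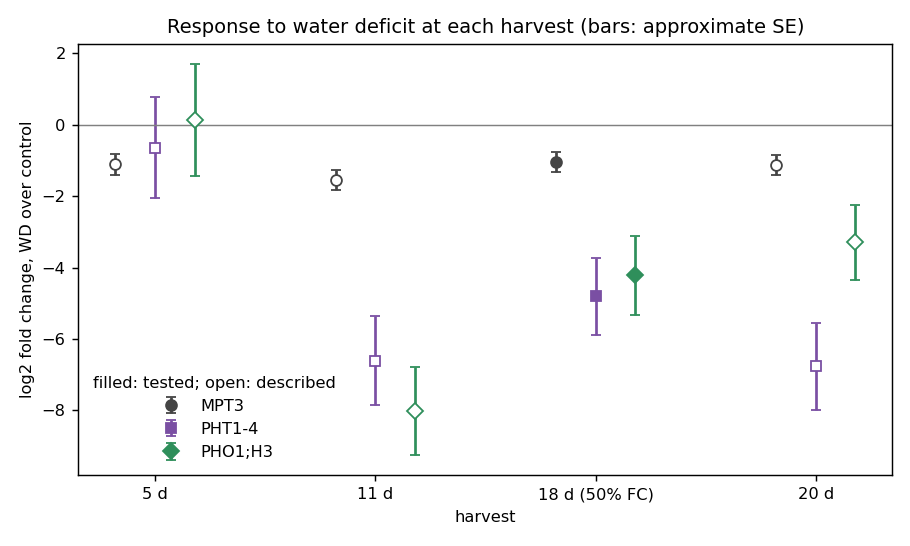
Log2 fold change of WD over control at each harvest for MPT3, PHT1-4 and PHO1;H3, with bars of 1 approximate SE. Filled symbols (18 d) were tested, and open symbols belong to the harvests that chose the genes. MPT3 stays between -1.54 and -1.05 at the 4 harvests, whereas PHT1-4 and PHO1;H3 lie near 0 at 5 d, with wide bars, and at -3.29 or below from 11 d on.

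Across all harvests, MPT3 was below every control library in every WD library: the highest WD library had 26.7 CPM (5 d, replicate 1) and the lowest control 34.3 CPM (18 d, replicate 3). This complete separation of 12 WD and 12 control libraries was found in 63 tested genes, or 0.115%, and since the 5 d libraries entered the choice it is a description. PHT1-4 reached 0.6 CPM, the level of the filter, in 4 WD libraries and 11 controls, and PHO1;H3 in 1 WD library and 9 controls. As the filter asked for 3 libraries, PHO1;H3 was tested only because of its level in controls, the group where it is high.

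Well-watered leaves changed over time. In control leaves PHT1-4 averaged 33.0 ± 12.4 CPM at 18 d and 0.730 ± 0.0837 CPM at 5 d (SD, n = 3 each), a log2 fold change of 5.55 (SE 1.15, adjusted p = 0.0035, edgeR's quasi-likelihood test). PHO1;H3 averaged 6.09 ± 2.53 CPM at 18 d and 0.272 ± 0.273 CPM at 5 d in controls (SD, n = 3 each), a log2 fold change of 4.57 (SE 1.15, adjusted p = 0.0104, same test). Both rose, at a harvest pair where 12.1% of tested genes were called higher. PHO1;H3 reached the filter's level in 1 WD library and 9 controls, none of them of 5 d. It entered the test through later controls, the high side of this contrast, so its call here is a description. The rise of PHT1-4 was called with any 1 of the 6 control libraries of 5 d and 18 d left out. That of PHO1;H3 was lost without control replicate 2 of 5 d (adjusted p = 0.0548, same test). It was also lost without control replicate 3 of 5 d (adjusted p = 0.0682, same test). Libraries of other groups were not left out for this contrast. MPT3 averaged 35.8 ± 1.90 CPM at 18 d and 44.7 ± 8.66 CPM at 5 d (SD, n = 3 each) in controls, a log2 fold change of -0.32 (SE 0.28) given as a description. With total counts in place of TMM factors the calls between these control groups were 81.9% higher, against 57.7%, and the shift was 0.22 on the log2 scale.

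In WD leaves neither PHT1-4 nor PHO1;H3 passed the test over time. PHT1-4 averaged 1.21 ± 0.722 CPM at 18 d and 0.455 ± 0.0569 CPM at 5 d under WD (SD, n = 3 each), a log2 fold change of 1.39 with an SE of 1.34 (adjusted p = 0.538, edgeR). For PHO1;H3 the means were 0.337 ± 0.171 and 0.292 ± 0.0903 CPM, 18 d before 5 d (SD, n = 3 each), with a log2 fold change of 0.21 (SE 1.52, adjusted p = 0.949, edgeR). MPT3 averaged 17.3 ± 2.22 CPM at 18 d and 20.7 ± 7.66 CPM at 5 d (SD, n = 3 each), with a log2 fold change of -0.25 (SE 0.28), again as a description. Neither PHT1-4 nor PHO1;H3 passed, and 8.05% of tested genes were called higher and 2.55% lower between the same WD groups. With the 12 libraries of 5 d and 18 d fitted alone, PHT1-4 was called higher (log2 fold change 1.35, adjusted p = 0.0165, edgeR).

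Whether the response to WD differed between 18 d and 5 d was tested directly, a comparison chosen after the values were seen. The difference of the log2 fold changes (18 d minus 5 d) was -4.16 (SE 1.85) for PHT1-4 and -4.36 (SE 2.02) for PHO1;H3. Neither passed after adjustment (adjusted p = 0.395 and 0.417, edgeR's quasi-likelihood test). That of PHT1-4 did with the 5 d and 18 d libraries fitted alone (-4.08, adjusted p = 0.0055, same test). Since the comparison was chosen after the values were seen, that pass is a description. PHO1;H3 entered the test through controls, so its difference is a description too. The changes over time and the responses to WD share the same libraries and are not independent of each other. MPT3 was not tested here because its 5 d response had chosen it.

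By level, the groups of PHT1-4 fell into a high set, the controls of 20 d, 11 d and 18 d, and a low set of the other groups, in the order WD 18 d, control 5 d, WD 20 d, WD 5 d and WD 11 d. Neighbours in this order overlapped except between control 18 d and WD 18 d, but control replicate 1 of 11 d, in the high set by its group mean, lay below every library of the low set. PHO1;H3 had the same high set, in the order 11 d, 18 d and 20 d, with the gap again below it. In MPT3 the 4 control groups ranked above the 4 WD groups, with overlap between neighbours except at that border.

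The members' symbols are shared by further gene copies, as *B. napus* carries the A and C genomes. The phosphate list of the study's supplement holds 5 genes named PHT1-4, 8 named PHO1;H3, and 1 each named PHO1, PHO1-H1, MPT2 and MPT3, 17 in all. The study drew the list from genes that differed at 5 d, 11 d or 20 d, so it is no independent evidence of direction, although the 18 d libraries were outside that choice. Pairs that mapped to several places (7.77% to 9.45% per library) were counted on no gene, so counts of near-identical copies are uncertain.

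Among the PHT1-4 copies, the described member carried the most counts. In the 8 libraries with at least 100 counts over the 5 copies, all of them controls, it held between 44.5% and 56.5% of them (median 49.4%, not corrected for gene length). The 5 copies together averaged 3.67 ± 1.63 CPM in WD leaves and 68.7 ± 20.4 CPM in controls at 18 d (SD, n = 3 each). BnaA05g06230D had 0.708, 0.937 and 0.300 CPM in WD leaves at 18 d, against 19.3, 24.3 and 13.8 CPM in controls, so that its groups too were far apart. Its log2 fold change was -4.95 (SE 1.05, adjusted p = 0.0127, edgeR). BnaA05g06210D (-4.93, adjusted p = 0.0186) and BnaA04g22280D (-3.48, adjusted p = 0.0415) also fell in the same test, and BnaC04g46050D had a log2 fold change of -2.74 that did not pass (adjusted p = 0.0768, edgeR). BnaA05g06210D and BnaA04g22280D reached the filter's level in 0 WD libraries and 8 controls each, and BnaA05g06230D in 2 and 8. These 3 copies were tested only through the group where they are high, so their calls are a description.

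The PHO1;H3 copies were less uniform. The member held at most 10.4% of the counts of its 8 copies (median 2.16%), and the copies together averaged 34.0 ± 12.1 CPM in WD leaves and 82.5 ± 31.9 CPM in controls at 18 d (SD, n = 3 each), with a WD range of 23.1 to 47.1 and a control range of 61.5 to 119 CPM. BnaC08g39950D had 1.34, 2.27 and 1.44 CPM in WD leaves, against 15.5, 31.5 and 14.4 CPM in controls, and fell (log2 fold change -3.60, SE 0.94, adjusted p = 0.0329, edgeR). BnaA09g45890D fell as well (-3.96, adjusted p = 0.0373, edgeR). It reached the filter's level in 0 WD libraries and 10 controls, so its call too is a description. BnaA06g38130D did not pass (-3.51, adjusted p = 0.0859), nor did BnaC05g10330D (-0.91, adjusted p = 0.585), BnaA06g38150D (-0.44, adjusted p = 0.712), BnaA09g45870D (-0.26, adjusted p = 0.748) and BnaC05g49630D (0.40, adjusted p = 0.626), all from the same edgeR test. In all, 3 of 8 copies, the member included, were called lower at 18 d, where 2.53% of all tested genes were. The member and BnaA09g45890D entered the test through controls, where they are high, so this count is a description. With 1 library of the harvest left out, the calls of the other copies named as lower held in 3 of 6 fits for BnaA05g06230D, in 2 for BnaA05g06210D and in 1 each for BnaA04g22280D, BnaC08g39950D and BnaA09g45890D.

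**Figure D3:**
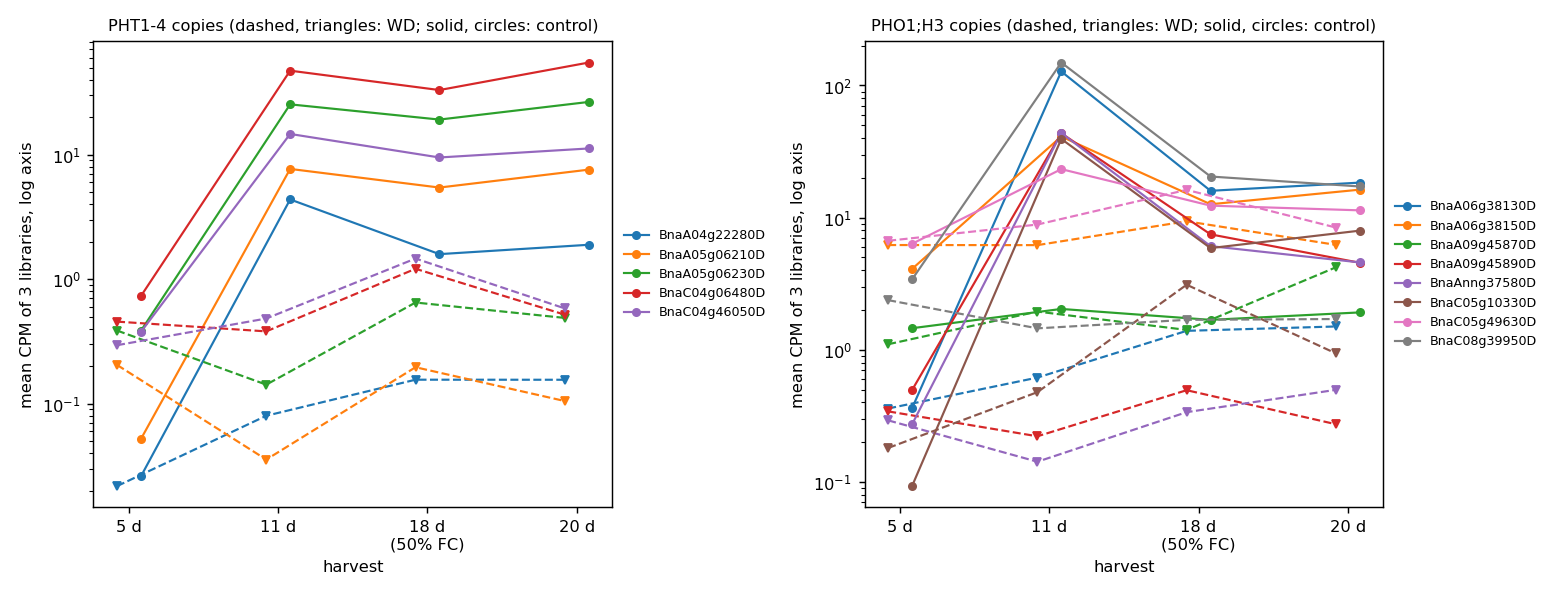
Mean CPM of 3 libraries (log axis) at each harvest for the 5 PHT1-4 copies and the 8 PHO1;H3 copies, with WD as dashed lines and triangles and control as solid lines and circles. All PHT1-4 copies are higher in control than in WD leaves from 11 d on. Among the PHO1;H3 copies, BnaA09g45870D, BnaC05g49630D and BnaA06g38150D keep WD and control lines close together at 18 d.

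The other mitochondrial carrier, MPT2 (BnaA06g19110D), had 0 counts in all libraries of 5 d. At 18 d it had 0, 2 and 0 counts in WD leaves, against 33, 60 and 68 counts in controls, and its adjusted p was 0.0685 (edgeR). At 11 d it had 0 counts in each WD library, against 0, 206 and 487 counts in controls, where replicate 1 was again the low one. At 20 d it had 0, 0 and 1 counts in WD leaves, against 150, 21 and 55 counts in controls. As with PHT1-4 and PHO1;H3, its high libraries were controls of the later harvests. PHO1 (BnaC01g30800D) had a log2 fold change of 0.05 at 18 d (adjusted p = 0.954) and PHO1-H1 (BnaC06g30370D) one of -0.62 (adjusted p = 0.362, edgeR).

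Of the 17 genes of the list, 8 were called lower and 0 higher at 18 d, namely the 3 members and 5 of the 14 others, where 2.53% of all tested genes were called lower. Of these 8, PHO1;H3 (the member), BnaA09g45890D, BnaA05g06210D and BnaA04g22280D reached the filter's level in fewer than 3 WD libraries (1, 0, 0 and 0 in that order), against 9, 10, 8 and 8 controls, as did BnaA05g06230D (2 WD libraries, 8 controls). They entered the test through the group where they are high, so the count is a description of the list. The median log2 fold change of the list was -3.48, beside 0.01 over all tested genes, and remained -3.48 when MPT2 was put at the bound given by 3 counts over the group. At an unadjusted p under 0.05 there were 11 such genes. With 1 library of the harvest left out the list had between 0 and 7 genes called lower, with 0 called without WD replicate 2, control replicate 1 or control replicate 2, 2 without WD replicate 1, 3 without WD replicate 3 and 7 without control replicate 3.

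**Figure D4:**
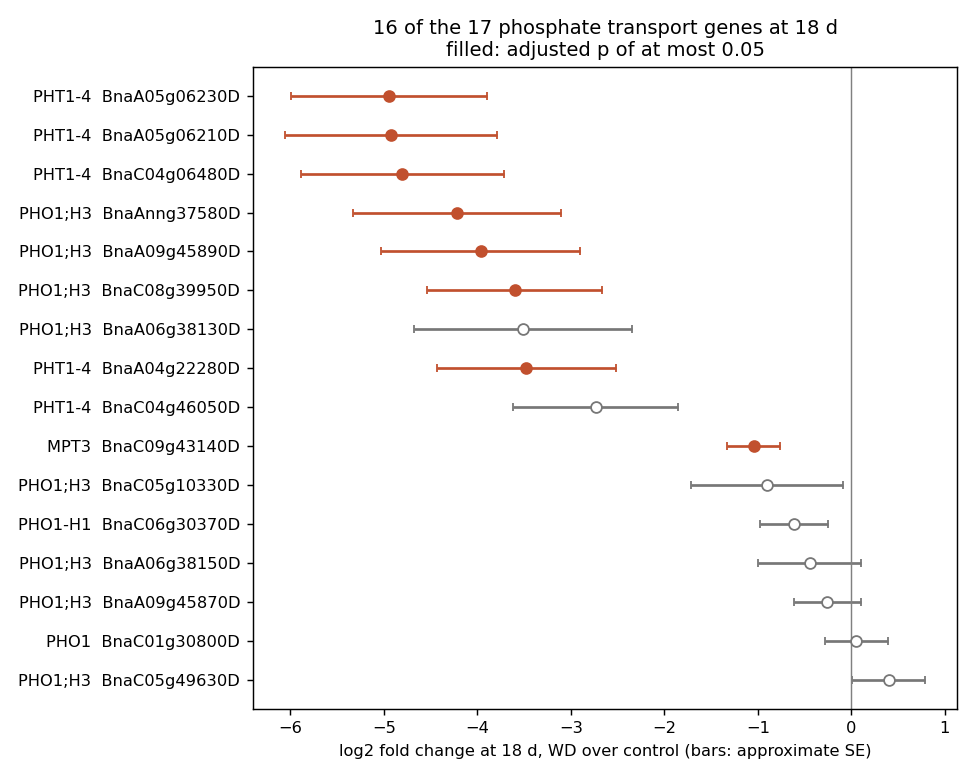
Log2 fold change of WD over control at 18 d for 16 of the 17 phosphate transport genes, with bars of 1 approximate SE; MPT2, with 2 counts in all WD libraries, is left out. Filled points passed an adjusted p of 0.05. The 8 filled genes lie between -4.95 and -1.05, and MPT3 is the filled gene nearest to 0.

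For the harvests that chose the list the counts are a description. At 5 d, 0 of 17 were called in either direction. Few genes were called at all there, 23 higher and 14 lower of the 54835 tested. At 11 d 14 were called lower, where 7.72% of all genes were. At 20 d 14 were called, where 19.8% of all genes were called in either direction, and of these BnaA09g45870D, a PHO1;H3 copy, was higher in WD leaves (log2 fold change 1.13) and the others lower.

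In control leaves, 12 of the 17 genes were higher at 18 d than at 5 d, and 10 of these were not members, where 12.1% of all tested genes were called higher. They comprised all 5 PHT1-4 copies, 6 of 8 PHO1;H3 copies and MPT2. Of these, MPT2 reached the filter's level in 0 WD libraries and 8 controls. The PHO1;H3 member, BnaA09g45890D, BnaA05g06230D, BnaA05g06210D and BnaA04g22280D reached it in fewer than 3 WD libraries, as given above. These genes entered the test through controls, where they are high at 18 d, and the list was drawn from these data. The count and the median are therefore a description of the list. The median log2 fold change was 4.57, beside -0.01 over all tested genes, and without control replicate 2 or 3 of 5 d the number fell to 6 in either case. In WD leaves 2 rose between the same harvests, where 8.05% of all tested genes were called higher: BnaC05g10330D, which averaged 3.11 ± 1.89 CPM at 18 d and 0.181 ± 0.0335 CPM at 5 d, and BnaC05g49630D, which averaged 16.2 ± 7.53 and 6.68 ± 0.566 CPM in the same order (SD, n = 3 each). PHO1-H1 fell to 1.99 ± 0.400 CPM at 18 d, against 4.75 ± 1.0 CPM at 5 d in WD leaves (SD, n = 3 each), where 2.55% of all tested genes were called lower. Each of these 3 calls held in 1 of 6 fits with a library left out. The list's median was 0.60 there with all genes and 0.57 with genes of at most 3 counts put at their bound or left out.

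Expression of the members over the 24 libraries was compared with that of 50521 genes by Pearson correlation of log2 normalized counts. These correlations describe libraries that share treatment and harvest, and are given without a p. For PHT1-4 the 5 nearest genes were its copy BnaA05g06230D (r = 0.985), BnaA08g10600D (0.982, annotated with protein kinase and Gnk2 domains), BnaA05g35900D and BnaA08g14520D (both 0.980) and BnaC08g43170D (0.978). For PHO1;H3 they were BnaA04g02560D (0.953), its copies BnaA09g45890D (0.951) and BnaA06g38130D (0.948), BnaC08g14230D (0.947) and BnaA08g04320D (0.945). For MPT3 they were BnaCnng75720D, named CCX1, a cation/calcium exchanger (0.906), BnaA10g19590D (0.896), BnaCnng04610D, named PML4 (0.893), BnaA02g11520D (0.892) and BnaA09g33340D (0.890).

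Between members, PHO1;H3 and PHT1-4 had r = 0.814 over the 24 libraries. Within the 12 WD libraries, where both were near 0, r was 0.03, and within the 12 controls it was 0.746. MPT3 had r = 0.610 with PHT1-4 and 0.560 with PHO1;H3 over all libraries, and -0.01 and 0.06 in the same order within the controls.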

How the data were processed

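Polyadenylated leaf RNA was sequenced as stranded read pairs. The authors trimmed reads (Trimmomatic 0.36), removed rRNA (sortMeRNA 2.1), mapped pairs with STAR 2.7.3a to the *B. napus* genome (Genoscope annotation V5) and deposited the count of pairs on each gene without normalization. The reverse-strand column was used, as the opposite strand held 0.301% to 0.479% of pairs. Pairs on no gene (15.8% to 19.2% per library) were listed apart and stayed out of library sizes.

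The filter required 0.6 CPM or more in 3 or more libraries. All 24 libraries were fitted with edgeR 4.0.16 (limma 3.58.1, R 4.3.3) in a model of 8 groups and an additive replicate block, as in the study, with TMM factors, the quasi-likelihood test, Benjamini-Hochberg adjustment and a threshold of 0.05. SEs are approximate (the log2 fold change over the square root of F), and p-values measure the spread between pools of plants. Correlations used log2(normalized count + 1) over genes averaging 10 normalized counts or more. Python 3.11.15, numpy 2.4.6, pandas 2.3.3 and matplotlib 3.10.9 were used for tables and plots. The procedure was tested on simulated counts.

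Named genes are the members, the study's list of 17 phosphate genes, and the 5 genes most like each member. The members and lists were chosen with earlier results of these data known. The alternatives were DESeq2 1.42.0, its size factors in edgeR, the likelihood ratio test, other block settings, no filter, both strands, subsets of harvests and each library left out, and, chosen after seeing the data, total counts without TMM.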

Additional observations from a re-analysis of the deposited data

How the results depend on the processing

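All 3 members kept their direction and their call at 18 d in the 9 other settings that were not a left-out library. With a library of the comparison left out, the log2 fold change of WD over control at 18 d lay between -1.16 and -0.92 for MPT3, between -5.38 and -4.33 for PHT1-4 and between -4.87 and -3.60 for PHO1;H3, and the lost calls are given above. In controls (18 d over 5 d) it lay between 4.01 and 5.60 for PHO1;H3, and in WD leaves (18 d over 5 d) between -0.42 and 0.76, with the sign turned (-0.42) without WD replicate 2 of 18 d. The cause was not tested. PHT1-4 under WD over time (1.35) and its difference between harvests (-4.08) passed with the libraries of 5 d and 18 d alone. The difference was a comparison chosen after the values were seen.

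The 3016 genes called at 18 d became 4659 with DESeq2, 4631 with the likelihood ratio test and 5452 with the libraries of 5 d and 18 d alone, and between 595 and 4355 with a library left out. The 11467 genes called in controls over time ranged from 6059 to 10044 with a library left out. The 5809 called in WD leaves over time became 9399 with the libraries of 5 d and 18 d alone and ranged from 1725 to 12011 with a library left out. With a library left out, the phosphate list ranged from 0 to 7 genes lower at 18 d and from 6 to 12 higher in controls over time. In the other settings it ranged from 7 to 12 (8 as reported) and from 11 to 13 (12 as reported). With total counts, 844 genes were higher and 3317 lower at 18 d, against 1631 and 1385 with TMM factors, and 10751 higher and 2370 lower in controls over time, against 6620 and 4847.

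Same-numbered WD and control libraries of 18 d did not deviate together (mean correlation of deviations 0.03, from -0.01 to 0.06), and for controls of 18 d and 5 d the mean correlation was 0.115 (0.03 to 0.18), against -0.06 for libraries with other numbers. As not every pair was over 0.1, the numbers were not taken to show that plants were paired, and the block was kept because the study's model has it. With no replicate block, 3328 genes were called at 18 d, 11888 in controls over time and 6332 in WD leaves over time. The log2 fold changes at 18 d were then -1.05 for MPT3, -4.77 for PHT1-4 and -4.14 for PHO1;H3, and the block changed no call of the members. Depth limits PHT1-4 and PHO1;H3 in WD leaves and at 5 d, where libraries held between 0 and 30 counts of either gene.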
